A study of Ascaris suum with 9 samples.

Results

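Larvae of the pig roundworm Ascaris suum were profiled by RNA sequencing, and 99 of the 17974 genes measured form the group described here: lower with biochanin A than with solvent, by 2.002-fold at the median, but closer to solvent with red clover extract. They were chosen by measured values: a control mean of at least 5 CPM (read counts per gene relative to library size, with TMM scaling), a change with biochanin A at or below -0.8, a change with extract above -0.4, and every biochanin A library below every control and extract library. Both changes are log2 ratios of mean CPM to the control mean, with 0.5 CPM added to each mean. The 150 genes of highest control mean and all identifiers beginning AgE were left out. The 9 libraries were 3 of larvae given red clover extract at 200 µg/mL, 3 given biochanin A at 100 µM and 3 given solvent alone as control, each for 3 hours. The sources used here name neither the larval stage nor the solvent, and the doses of extract and pure compound are not matched.

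Biochanin A is an isoflavone that red clover makes, with a methyl group on one of its hydroxyls, and is known as an inhibitor of tyrosine kinases and as a weak ligand of vertebrate oestrogen receptors. Red clover extract is a mixture of plant compounds in which isoflavones are a major class. Ascaris larvae hatch in the gut of the pig and migrate through its tissues. Since the table pairs no identifier with a gene name or product, the 99 genes carry no known role here. No marker of a tissue could be looked up to check the label of whole organism. RNA came from whole larvae, so fewer cells of a type and less RNA per cell cannot be told apart.

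The limits removed genes in steps. Of the 17974 genes, 10490 had a control mean of at least 5 CPM, and 363 of these reached the limit for biochanin A. Extract stayed above its limit for 106 of the 363, and 101 of those had no overlap between biochanin A and the other libraries. Removal of 1 AgE identifier and 1 gene among the 150 most abundant left the 99. The same abundance limits without the limits on change hold for 10317 genes, called the eligible genes here, of which 15.5% had every biochanin A library below every other library. The least changed member had a biochanin A change of -0.802 and the nearest gene outside that limit had -0.798. For extract the values nearest the limit were -0.399 inside and -0.402 outside. Within 0.1 of the extract limit lay 47 members on the inside and 34 genes on the outside, so the limit passes through a continuous spread of genes.

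**Figure D1:**
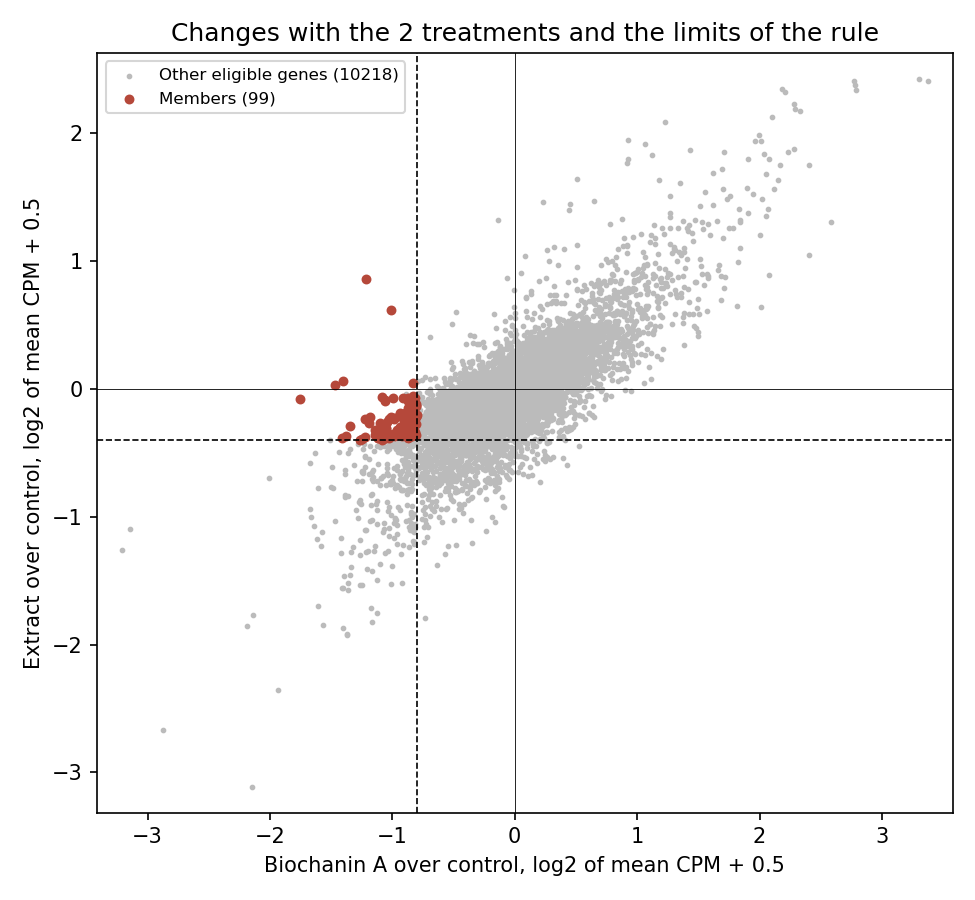
Log2 change with biochanin A over control (horizontal axis) and with extract over control (vertical axis) for the 10317 eligible genes, one point per gene, with the limits of -0.8 and -0.4 as dashed lines. The 99 members (red) border other eligible genes (grey) on both limits, and 5 of them lie above an extract change of 0.

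The summed level of the 99 genes was 2240, 2108 and 2173 CPM in the extract libraries, 1315, 1267 and 1273 CPM in the biochanin A libraries, and 2502, 2713 and 2492 CPM in the control libraries. The 3 groups did not overlap, with extract between biochanin A and control. The rule fixes the place of biochanin A below both. It also limits the extract change and used the same control libraries, so the place of extract below control is not free of the selection. As a share of all counts, the genes took 0.213 ± 0.008% with extract, 0.121 ± 0.003% with biochanin A and 0.279 ± 0.008% in control (mean ± SD, n = 3 each). The gene AgR001_g659, singled out after its values were seen because it is the most abundant member, stood at 352, 336 and 346 CPM with extract, 180, 195 and 204 CPM with biochanin A, and 364, 539 and 338 CPM in control. Its control replicate 2 was the highest of all libraries. Without this gene the summed level was 1829 ± 58 CPM with extract, 1092 ± 37 CPM with biochanin A and 2156 ± 17 CPM in control.

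In edgeR's quasi-likelihood fit over all genes, all 99 were called lower with biochanin A than in control (called means an adjusted p below 0.05), at adjusted p-values of 4.3e-09 to 0.022. Over the 15177 genes tested, 18.3% were called lower, but the rule used this contrast, so nothing is read from the count. The members' log2 fold changes ran from -1.84 to -0.82 with a median of -1.001, against a median of -0.02 over all tested genes. The fall was 2.002-fold at the median and 3.57-fold at most, and 50 of the 99 genes fell by more than 2-fold. These are values of the edgeR fit, not of the rule's scale with 0.5 CPM added. The share of all tested genes that fell so far in this fit is not given here. The lowest of the 6 other libraries was 1.34 times the highest biochanin A library at the median. This ratio was 2.89 at most and 1.00006 at least, so the limit of no overlap was in places barely met. The gap was at least 1.5 times for 14 genes. The same share over the eligible genes is not given here.

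**Figure D2:**
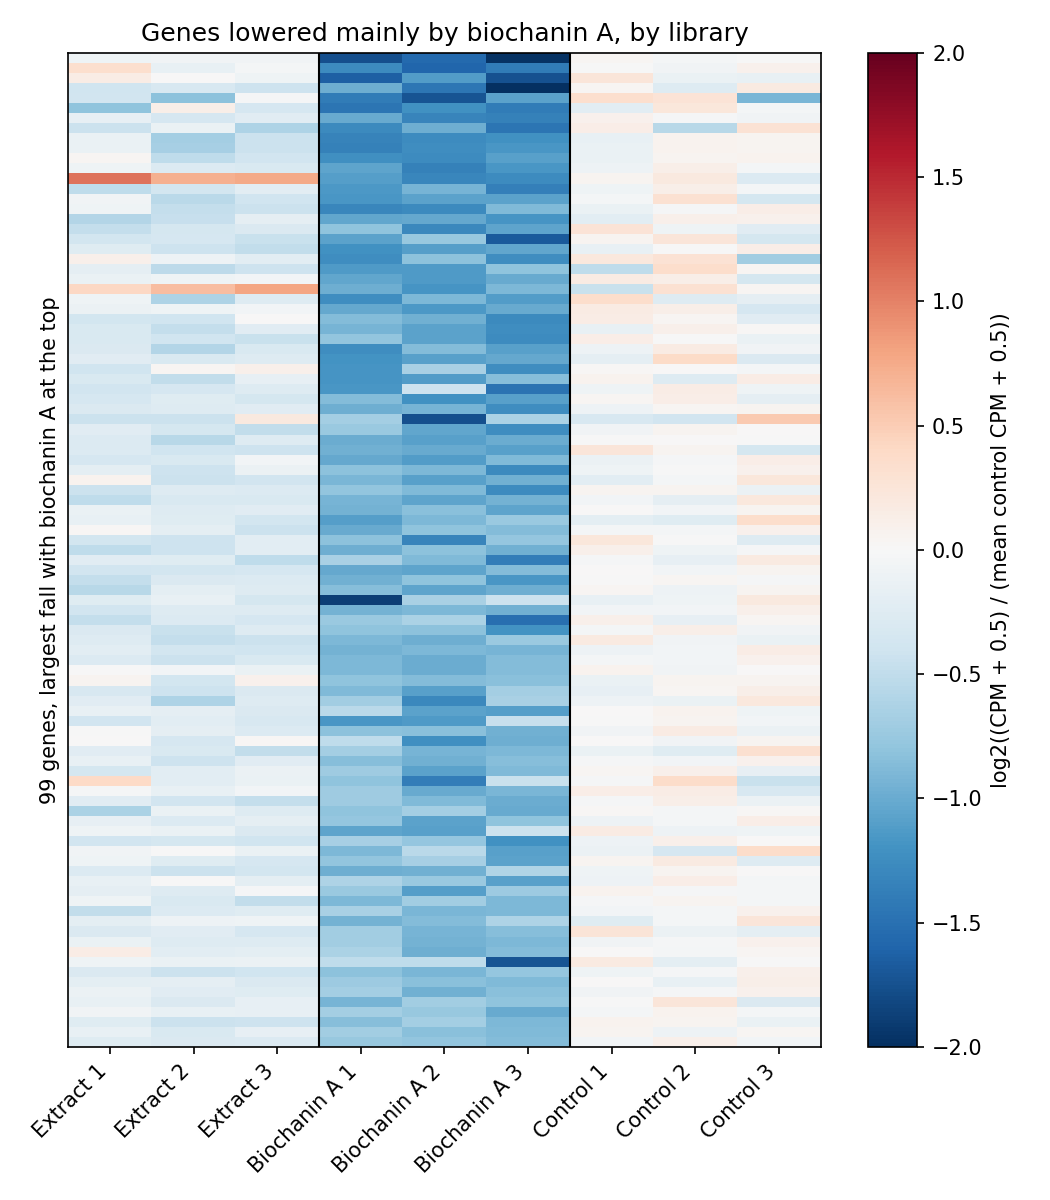
Log2 of CPM + 0.5 over the mean control CPM + 0.5 for the 99 genes (rows, largest fall at the top) in each library (columns: extract, biochanin A, control, 3 replicates each). The biochanin A columns are blue throughout, the extract columns are mostly pale blue, and 2 rows are red in all 3 extract libraries (AgR037_g035 and AgB05_g010).

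Most of the 99 genes were of modest abundance. Their median control mean was 17.7 CPM, against 39.5 CPM for the eligible genes. A control mean below 10 CPM was found for 24 members, 10 to 50 CPM for 67 and at least 50 CPM for 8. These are 24.2%, 67.7% and 8.08% of the members, beside 13.1%, 44.6% and 42.3% of the eligible genes. The lowest raw count of any member in any library was 61. The spread between the biochanin A libraries, as a coefficient of variation, had a median of 12.4% over members and 6.56% over eligible genes. In control these medians were 9.65% and 8.23%. The median level with biochanin A was 8.26 CPM for members and 38.3 CPM for eligible genes. By control mean, the members' median spread with biochanin A was 16.1% below 10 CPM, 12.4% at 10 to 50 CPM and 8.55% at 50 CPM or more. The part of abundance in this spread was not tested. The median fall with biochanin A was -1.09 on the log2 scale for members below 10 CPM (median SE 0.22), -0.99 at 10 to 50 CPM (median SE 0.15) and -0.87 at 50 CPM or more (median SE 0.09). The rule selected on this change, and the 0.5 CPM it adds shrinks the change of weak genes more. Nothing is therefore read from this order.

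Libraries of one group had similar medians over the members. The rule fixes the place of biochanin A below both other groups, and these medians do not show the spread of single genes given above. The median log2 level relative to the control mean was -0.22, -0.29 and -0.26 in extract replicates 1 to 3 and -0.91, -0.98 and -0.98 in biochanin A replicates 1 to 3. Over the eligible genes the same medians lay between -0.023 and -0.00090 in the 6 treated libraries. Extract replicate 1 was the highest extract library for 51 of the 99 genes and biochanin A replicate 1 the highest biochanin A library for 42. The same shares over the eligible genes are not given here, so nothing particular to the members is read from these counts.

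Most members also had lower means with extract than in control, by less than with biochanin A. The log2 change with extract was negative for 94 of the 99 genes on the scale of the rule, between -0.4 and -0.2 for 73 and between -0.2 and 0 for 21. In the edgeR fit the extract's log2 fold changes ran from -0.43 to 0.87 with a median of -0.29, against -0.01 over all tested genes. The rule cuts these values off from below, and both treatments are compared with the same 3 control libraries. As a share of the biochanin A change on the log2 scale, the extract change was 27.8% at the median, with quartiles of 19.5% and 34.9%. For comparison, 254 eligible genes met the biochanin A limit, had no overlap between biochanin A and control, and lay at or below the extract limit. Their median log2 fold changes were -0.79 with extract and -1.08 with biochanin A, and their median control mean was 16.9 CPM.

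Of the 99 genes, 12 were called lower and 2 called higher with extract than in control, at an adjusted p below 0.05 by edgeR's quasi-likelihood test. Over all tested genes 8% were called lower and 9.34% higher. The 12 lower members had control means of 22.2 to 71.6 CPM and log2 fold changes of -0.40 to -0.28. For the other 85 genes a change with extract was not detectable at this spread, which does not show that they stayed level; the median SE of a member was 0.16 on the log2 scale. Every extract library lay below every control library for 51 of the 99 genes and above for 2, with overlap for 46; over the eligible genes these orders held for 20.4% and 17.1%. The rule used these control and extract libraries, so nothing is read from this difference or from the share called. Over the same 99 genes the 14 calls became 8 without control replicate 1, 8 without control replicate 3, 4 without extract replicate 2, 6 without extract replicate 3, and 48 with scaling by library totals (47 lower and 1 higher, where 19.3% of all tested genes were called lower and 4.9% higher). The shares of all tested genes called without each of these libraries are not given here. Whether the loss of calls is particular to the 99 genes was not tested.

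Between the treatments, 89 of the 99 genes were called higher with extract than with biochanin A, at a background of 7.37%, a contrast that the rule also used. The log2 difference ran from 0.46 to 2.12 with a median of 0.73. The 10 genes that were not called had control means of 5.27 to 15.4 CPM, log2 differences of 0.54 to 0.86 and adjusted p-values of 0.052 to 0.15 by edgeR's quasi-likelihood test. Below 10 CPM 7 of 24 genes were not called, at 10 to 50 CPM 3 of 67, and at 50 CPM or more 0 of 8. The shares over eligible genes of the same abundance are not given here. Nothing particular to the members is therefore read from these counts.

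AgR025_g053 had the largest fall with biochanin A. It stood at 20.5, 20.8 and 20.8 CPM with extract, 6.12, 7.10 and 5.21 CPM with biochanin A, and 22.6, 21.3 and 21.7 CPM in control. Extract libraries were close to one another and just under the control libraries, while biochanin A libraries lay far below both. The log2 fold change was -1.84 ± 0.14 (SE) for biochanin A against control (adjusted p = 4.3e-09 by edgeR), 1.76 ± 0.14 for extract against biochanin A (adjusted p = 1.4e-07) and -0.08 ± 0.13 for extract against control (adjusted p = 0.75).

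AgB14_g104, second in size of fall, had 9.43, 6.65 and 7.16 CPM with extract, 2.81, 2.13 and 2.497 CPM with biochanin A, and 7.35, 6.98 and 7.84 CPM in control. The extract and control libraries overlapped. The log2 fold change for biochanin A against control was -1.58 ± 0.21 (adjusted p = 1.1e-05 by edgeR), and extract against control gave 0.06 ± 0.20 (adjusted p = 0.88), a value whose sign turned with scaling by library totals (-0.09) and without extract replicate 1 (-0.10).

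Of the 5 members with a positive log2 fold change with extract against control (0.03 to 0.87), 2 were called higher in the edgeR fit, beside their negative change with biochanin A. AgR037_g035 stood at 71.1, 54.6 and 56.9 CPM with extract, 15.3, 13.2 and 13.6 CPM with biochanin A, and 34.5, 38.2 and 27.4 CPM in control. No libraries of different groups overlapped. Against control it rose with extract by 0.87 ± 0.12 (adjusted p = 3.6e-05 by edgeR) on the log2 scale, while the log2 fold change with biochanin A was -1.25 ± 0.13 (adjusted p = 3.1e-07). Extract over biochanin A gave 2.12 ± 0.13 (adjusted p = 6.4e-09). The rise with extract passed the threshold under all 16 alternative settings, at adjusted p-values of 1.4e-09 to 0.00034. AgB05_g010 was less abundant, at 9.56, 11.2 and 12.7 CPM with extract, 3.35, 2.85 and 3.59 CPM with biochanin A, and 5.08, 8.92 and 7.28 CPM in control. Its control libraries were spread, and the lowest extract library was just above the highest control library. It rose with extract by 0.65 ± 0.21 against control (adjusted p = 0.039 by edgeR), but this p was 0.19 without control replicate 1, 0.069 without control replicate 3, 0.11 without extract replicate 2, 0.17 without extract replicate 3 and 0.085 with library totals, and 0.012 to 0.19 over the 16 settings. Its difference between extract and biochanin A was 1.78 ± 0.22 (adjusted p = 2.5e-05).

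AgR006_g261 and AgB03_g295 had the largest falls with extract among members called there. AgR006_g261 had 18.6, 16.5 and 15.6 CPM with extract, 9.28, 10.04 and 10.6 CPM with biochanin A, and 20.0, 22.1 and 24.4 CPM in control. Its libraries formed 3 separate steps, and the log2 fold change was -0.40 ± 0.13 with extract (adjusted p = 0.045 by edgeR) and -1.16 ± 0.13 with biochanin A. AgB03_g295 had 28.6, 29.1 and 28.2 CPM with extract, 23.5, 21.7 and 15.8 CPM with biochanin A, and 34.6, 40.1 and 37.4 CPM in control. It changed by -0.39 ± 0.12 with extract (adjusted p = 0.035 by edgeR) and -0.88 ± 0.12 with biochanin A, and biochanin A replicate 3 was its lowest library. The call with extract was lost for AgR006_g261 without any 1 of 6 libraries (control replicates 2 and 3, biochanin A replicates 1 and 2, extract replicates 2 and 3; adjusted p 0.0046 to 0.17 over the 16 settings) and for AgB03_g295 without any 1 of 5 (control replicates 2 and 3 and each extract replicate; 0.0034 to 0.10).

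**Figure D3:**
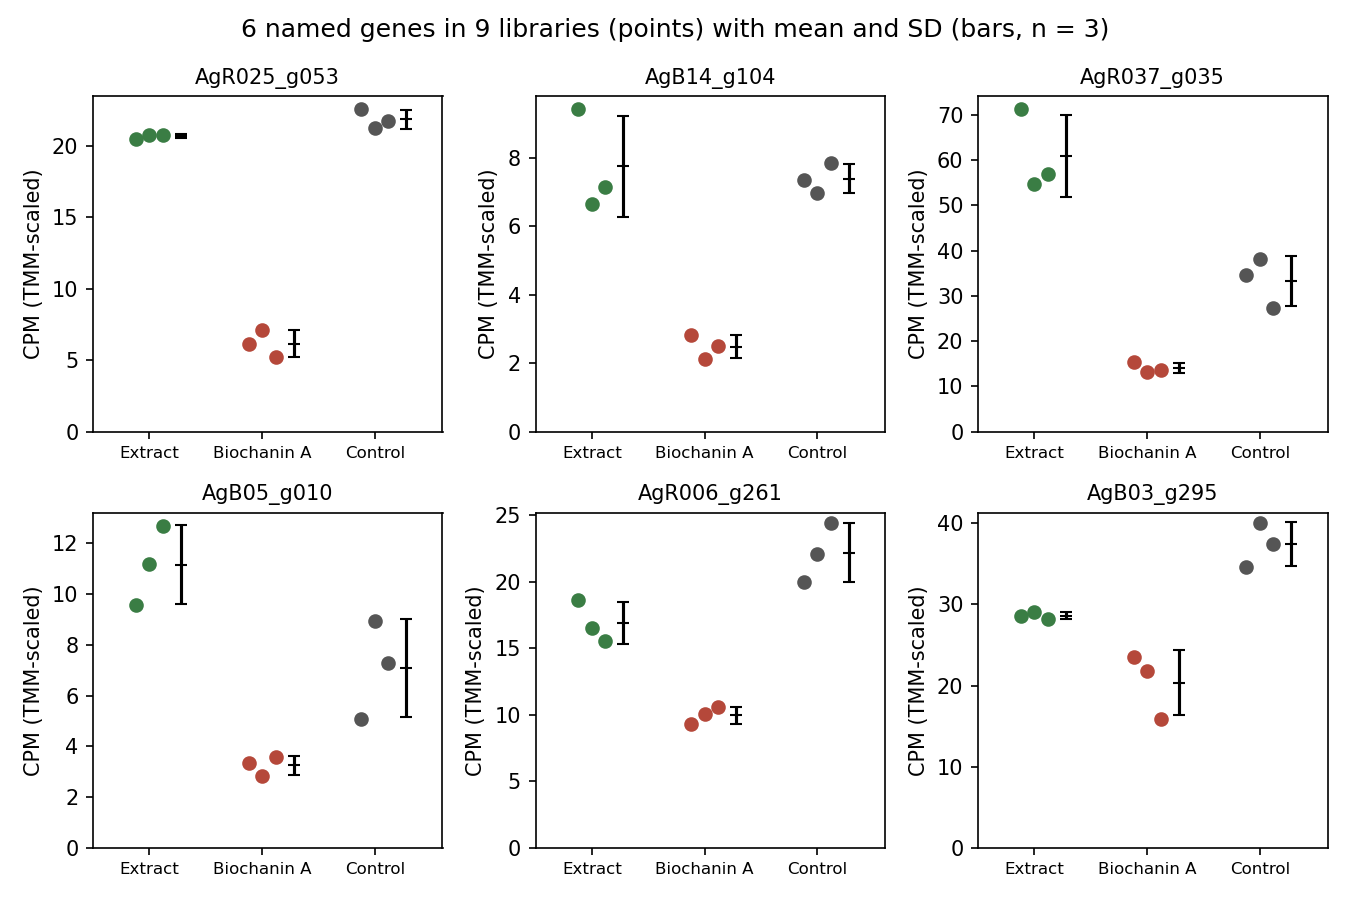
TMM-scaled CPM of the 6 genes named by the fixed rule in each library (points), with mean and SD of 3 libraries (black), for extract, biochanin A and control from left to right; each vertical axis starts at 0. Biochanin A is lowest in all 6 panels, and extract is highest with no overlap for AgR037_g035 and AgB05_g010.

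Position by identifier was not used by the rule. The 99 genes fell on 42 of the 199 scaffold labels that carry an eligible gene, with 9 members at most on one label (AgB01) and 1 member each on 18 labels. AgB01 carried 479 eligible genes, so its members were 1.88% of these. Other labels had higher shares with fewer members, such as AgR037 with 3 of 84 (3.57%). The sources used here do not explain the letters. Identifiers with AgR and no X after the number made up 53 members, AgB without X 32, AgR with X 13 and AgB with X 1. These are 0.985%, 1.14%, 0.841% and 0.175% of the eligible genes of each class, beside 0.960% overall.

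Consecutive identifiers recur among the members. Of the 99 genes, 13 (13.1%) carried a number directly before or after that of another member on the same label, while 120 (1.17%) of the eligible genes that are no members were numbered next to a member. The count of 13 was 8 without control replicate 1 and 20 without biochanin A replicate 1, with the members chosen again each time. The 13 genes form 5 pairs and 1 run of 3, named here after their values were seen. The run holds AgR025_g053, AgR025_g054 and AgR025_g055. AgR025_g054 had 39.5, 35.5 and 39.1 CPM with extract, 27.0, 24.4 and 23.6 CPM with biochanin A, and 45.6, 41.2 and 45.3 CPM in control. AgR025_g055 had 43.9, 36.3 and 41.4 CPM with extract, 26.7, 24.8 and 26.7 CPM with biochanin A, and 47.8, 47.0 and 51.6 CPM in control. In both genes every biochanin A library was below every other library, which the rule requires of every member. The log2 fold changes with biochanin A were -0.82 and -0.91, beside -1.84 for AgR025_g053.

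Among the 5 pairs, AgR009X_g092 and AgR009X_g093 differed by at most 0.816% in raw counts in any library, and AgR047_g010 and AgR047_g011 by at most 4.03%. Such agreement within 5% in all 9 libraries held for 2 of the 7 consecutive steps between members and for 51 of the 7039 between eligible genes (0.725%). Whether the same reads were counted for both genes of a pair was not tested. AgB01_g362 and AgB01_g363 differed by up to 7.55%. The other two pairs had distinct counts: AgR005_g005 held 1.32 to 1.502 times the counts of AgR005_g004, and AgB10_g139 held 0.382 to 0.540 times those of AgB10_g138.

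Genes numbered next to a member without being one were also described. They were taken by position, but any neighbour that met the rule was counted as a member instead. The values of these genes are therefore not free of the rule. Of 169 such tested genes, 66.3% had a negative log2 fold change with biochanin A, against 51.5% of all tested genes. The median of the 169 was -0.24, against -0.02 over all tested genes, and with extract it was -0.05, against -0.01. By edgeR's quasi-likelihood test 52 of the 169 were called lower with biochanin A and 19 higher, 30.8% and 11.2%, against 18.3% and 16.9% of all tested genes. Among the 120 neighbours that are eligible genes 47 were called lower (39.2%), against 24.1% of all eligible genes that are no members. The medians at 2 to 10 steps from a member lay between -0.12 and 0.04. At these distances 43.8% (8 steps) to 62.1% (3 steps) had a negative change, and 11.9% (8 steps) to 26.9% (2 steps) were called lower. None of the 169 neighbours had counts within 5% of those of its member in all 9 libraries. Without control replicate 3 the median at 1 step was -0.14, and with library totals it was -0.39, where all fold changes shifted by a median of -0.20. The sources used here do not say whether counting used strand, and without strand the reads of overlapping neighbours cannot be told apart.

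**Figure D4:**
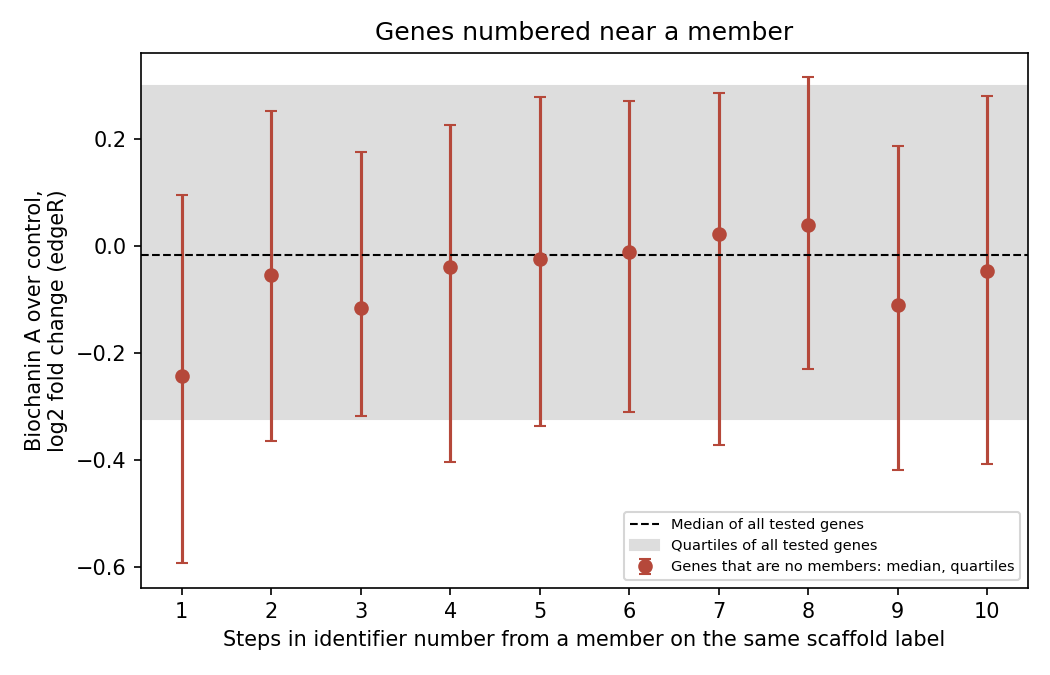
Log2 fold change of biochanin A over control (vertical axis) for tested genes that are no members, by their distance in identifier number from a member (horizontal axis), as median with quartiles; the dashed line and grey band give the median and quartiles of all tested genes. The median is -0.24 at 1 step and between -0.12 and 0.04 at 2 to 10 steps.

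Membership depended on scaling and on single libraries. With scaling by library totals in place of TMM, 199 genes met the rule and 43 of them were among the 99. Over the same 99 genes, library totals gave a median log2 fold change of -1.21 with biochanin A and -0.44 with extract. On the scale of the rule, a biochanin A limit of -1 in place of -0.8 left 37 genes. A change that far on this scale was found for 1.67% of the eligible genes. Leaving out 1 library gave 95 to 133 genes, of which 73 to 93 were among the 99, and 31 of the 99 met the rule in all 9 of these runs.

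**Figure D5:**
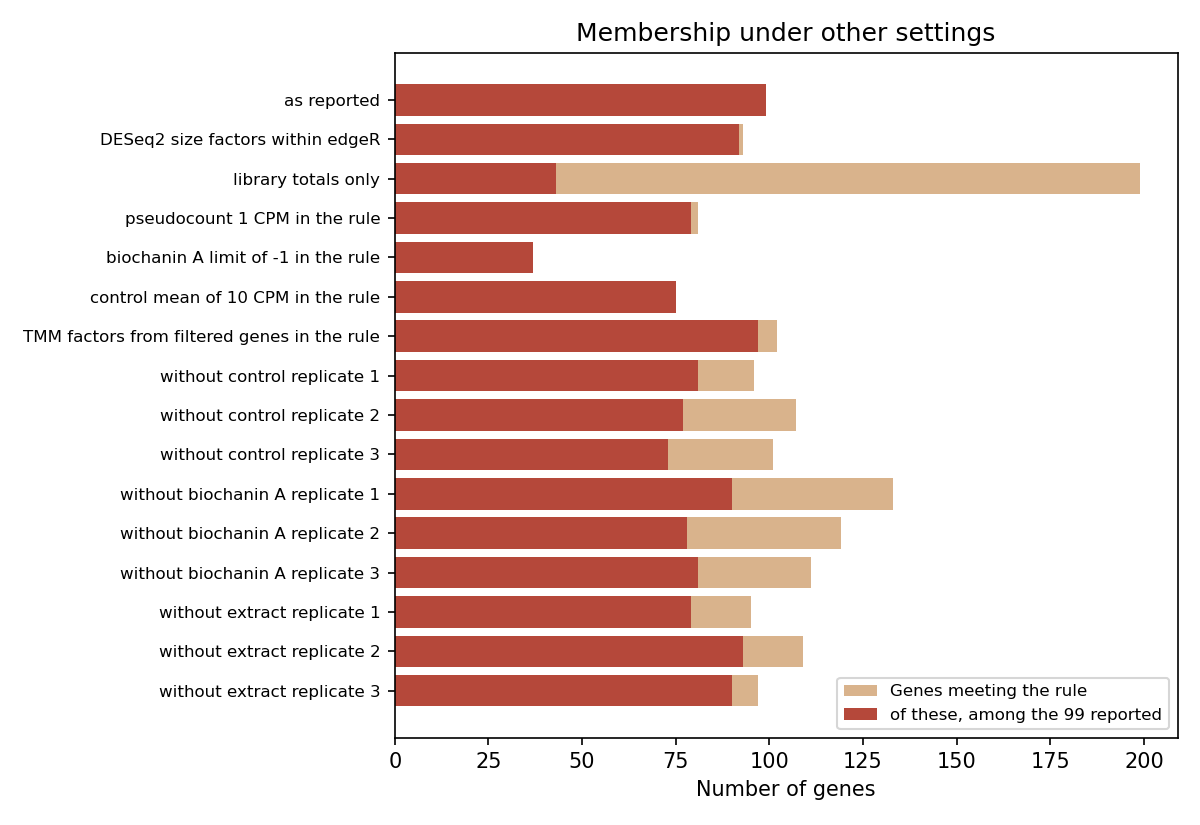
Number of genes that met the rule (full bars) and the number of these among the 99 reported genes (dark part) under each setting (rows); the horizontal axis counts genes. The bar for library totals is longest, at 199 genes with 43 of the 99, and the bar for a limit of -1 is shortest, at 37.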

How the data were processed

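The authors deposited unnormalized read counts, one value for each gene and library; all are whole numbers, and column totals differ. DESeq2 is listed, per the submitters' processing notes, which state no role for it. The aligner, the counter and the handling of reads matching several genes were not given in the sources used here. Library names in the labels tie each column to its sample, and 0 columns were left without a sample.

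CPM for the rule used TMM factors (edgeR 4.0.16, R 4.3.3) from all 17974 genes. For the tests, filterByExpr kept 15177 genes, all 99 members among them. edgeR's quasi-likelihood test was fitted to the counts in one model over the 3 groups (robust dispersion, no block), with Benjamini-Hochberg adjustment over all tested genes and a threshold of 0.05. The standard error is the log2 fold change divided by the square root of F. The workflow was tested on simulated data. Library totals ran from 44324212 to 53786882 counts. The labels do not say that replicates came from separate larval cultures, so the p-values cover only the spread among these libraries, possibly a technical one.

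The members and the lists were chosen with earlier results of these data known. Genes were named by a rule for unnamed identifiers: the 2 members with the largest fall with biochanin A, the 2 others with the largest difference of extract over biochanin A, and up to 2 in each direction for extract against control, all at an adjusted p below 0.05. Lists by gene product and tissue markers could not be used. Alternatives were DESeq2 size factors within edgeR, library totals, no filter, limma voom (limma 3.58.1), DESeq2 1.42.0, a replicate block, an adjusted p below 0.01, other limits in the rule, and leaving out each library.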

Additional observations from a re-analysis of the deposited data

How the results depend on the processing

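With DESeq2 size factors, a pseudocount of 1 CPM, a control mean of 10 CPM or TMM factors from filtered genes, the number of members stayed within 1.5 times of 99; the median of neighbouring genes was -0.22 with DESeq2 size factors and -0.20 with a pseudocount of 1 CPM. With library totals 199 genes met the rule, 35 of them next to another; 199 were called lower with biochanin A, 180 higher with extract than biochanin A and 68 with extract against control, where 34.2% of all tested genes were called lower with biochanin A, 10.6% higher with extract than biochanin A, and 19.3% lower and 4.9% higher with extract against control. The rule used these libraries, so nothing is read from the members' counts. In this setting the neighbours' median was -0.39. With the 99 genes kept, 48 were called with extract against control, beside the same 19.3% and 4.9% of all genes, an alternative added after seeing the data. With library totals, all fold changes of extract against control shifted by a median of -0.147 on the log2 scale. The cause of the added calls was not tested. A limit of -1 left 37 genes, 4 of them adjacent, and an adjusted p below 0.01 left 3 calls with extract against control, both by construction.

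Leaving out 1 library gave 95 to 133 members, 8 to 20 adjacent members, a neighbours' median of -0.24 to -0.14, 95 to 133 calls lower with biochanin A, 77 to 103 higher with extract than biochanin A and 4 to 16 with extract against control. With the 99 kept, an alternative added after seeing the data, these calls were 97 to 99, 73 to 89 and 4 to 16. With the replicate block 99, 89 and 15 genes were called. The shares of all tested genes called in these refits are not given here. The rule used these libraries, so nothing is read from these counts of calls. The block lost the extract call of AgR006_g261 (adjusted p = 0.063), as did no filter on low counts (0.052). Deviations of same-numbered libraries correlated between -0.0246 and 0.0242, so the numbers gave no sign of a pairing.

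Of 288 values of the 6 named genes under alternatives, 263 kept direction and side of the threshold, 23 kept the direction only and 2 turned sign: AgB14_g104 with extract against control, uncalled throughout, at -0.087 with library totals and -0.10 without extract replicate 1 (-0.10 to 0.16 without 1 library). Of the 23, 21 concern extract against control and 2 concern AgB03_g295 with extract against biochanin A, which had an adjusted p of 0.059 without biochanin A replicate 3 and whose 0.011 misses 0.01. Between the treatments 7 of 24 members below 10 CPM were not called, at a median SE of 0.22 for biochanin A against control; the part of depth in this was not tested.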
